A study of Bos taurus with 40 samples.

Results

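The septins SEPT2, SEPT6, SEPT7, SEPT8, SEPT9, SEPT10 and SEPT11 are the family members that most mammalian cell types use, and they were followed here as a set across the cells of the bovine ovarian follicle. They were chosen by name: a row called SEPT plus the number in each of 4 RNA count tables. All 7 were found, among 13 septin rows and 59051 rows in all. The rule used names only, though it was set with earlier results of these data known. Bovine oocytes, scored as reaching the blastocyst stage or arresting at cleavage after maturation in vitro, were studied with granulosa cells of their own follicle, cumulus cells and an ooplasm biopsy of each oocyte, with 4 libraries per fate and cell type. In addition, 4 ooplasm biopsies carried the same numbers (2, 3, 6 and 16) as 4 whole oocytes, for which the labels give no fate. Granulosa and fate-scored biopsy libraries share oocyte labels, B20, B21, D24 and D27 for the blastocyst group and B14, B23, D10 and D29 for the cleavage group. The labels give the genotype of every sample as diploid and name no other treatment. A biopsy is a sample of ooplasm and not a whole cell. The labels do not say that each sample is from its own animal, and the p-values cover only the spread among the libraries at hand, which may be technical.

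Septins are GTP-binding proteins that join into rod-like complexes and filaments at the plasma membrane, along actin and along microtubules. A complex draws its subunits from 4 subgroups, and members of a subgroup can stand in for each other at the same position. SEPT2 belongs to the subgroup named after it, SEPT6, SEPT8, SEPT10 and SEPT11 belong to the SEPT6 subgroup together with SEPT14, which is not followed here as a member, SEPT9 belongs to the SEPT3 subgroup, and SEPT7 is the sole member of its own. The family is best known for scaffolding the cleavage furrow in cytokinesis, and in mouse oocytes septins have been studied in meiotic spindle organisation and polar body extrusion.

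The total count per library was 9875705 to 17668550 in granulosa cells, 7964591 to 9592127 in cumulus cells, 16804281 to 22557007 in fate-scored biopsies and 13442089 to 23790073 in the matched set. Of 46 marker genes listed for 7 cell types, 2 had a row under their symbol, both from the oocyte list: H1FOO, the oocyte linker histone, and TCL1B. H1FOO stood at 662 to 1905 CPM in the 16 biopsy and oocyte libraries and at 0 to 1 count in the 8 cumulus libraries. Granulosa cells of the cleavage group held 4 to 74 H1FOO counts and those of the blastocyst group 95 to 338, highest in B20 (338) and next in D27 (207). TCL1B, at 167 to 1555 counts in biopsies and oocytes and 0 to 2 in cumulus cells, held 0 to 2 counts in cleavage granulosa cells and 10, 6, 0 and 19 counts in B20, B21, D24 and D27 of the blastocyst group, so that D27 and not B20 was highest. The labels of granulosa and cumulus cells could not be checked against their own markers. The blastocyst-group granulosa libraries also had counts in more rows, 26373 to 28629 with at least 5 counts, against 18065 to 22039 in the cleavage group.

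Levels are given as CPM, counts per 1000000 after TMM scaling over all 32 RNA libraries. Comparisons of a gene between cell types rest on this scaling. The TMM factors ran from 0.52 to 0.81 in whole oocytes and from 1.06 to 1.09 in cumulus cells. In blastocyst-group granulosa cells they ran from 1.49 to 2.23. Gene lengths were not used, so levels of different septins are not compared with each other. In bulk libraries fewer cells of a type and less RNA per cell cannot be told apart. Each cell type also has its own set of libraries, so cell type and library set cannot be told apart, except that matched biopsies and oocytes share a table.

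Each septin was set between the 2 sides of the follicle. SEPT7, SEPT8 and SEPT11 had their higher medians in the 16 oocyte-side libraries (biopsies and whole oocytes), and SEPT2, SEPT6, SEPT9 and SEPT10 in the 16 somatic libraries (granulosa and cumulus cells). Over all 29999 rows that passed the filter, 50.6% had the higher median on the oocyte side. Judged by means instead of medians, 3 members were again higher on the oocyte side. That count by means stayed at 3 on library totals and also on DESeq2 size factors. The count by medians was taken on the TMM scale only. The ranges of SEPT10 on the 2 sides did not overlap: its lowest somatic library stood at 27.2 CPM and its highest oocyte-side library at 7.06 CPM. Of all rows 17.7% had no overlap between the sides, 4.65% with the oocyte side lower as in SEPT10. For SEPT2, SEPT6, SEPT7, SEPT8, SEPT9 and SEPT11 the ranges of both sides overlapped.

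**Figure D1:**
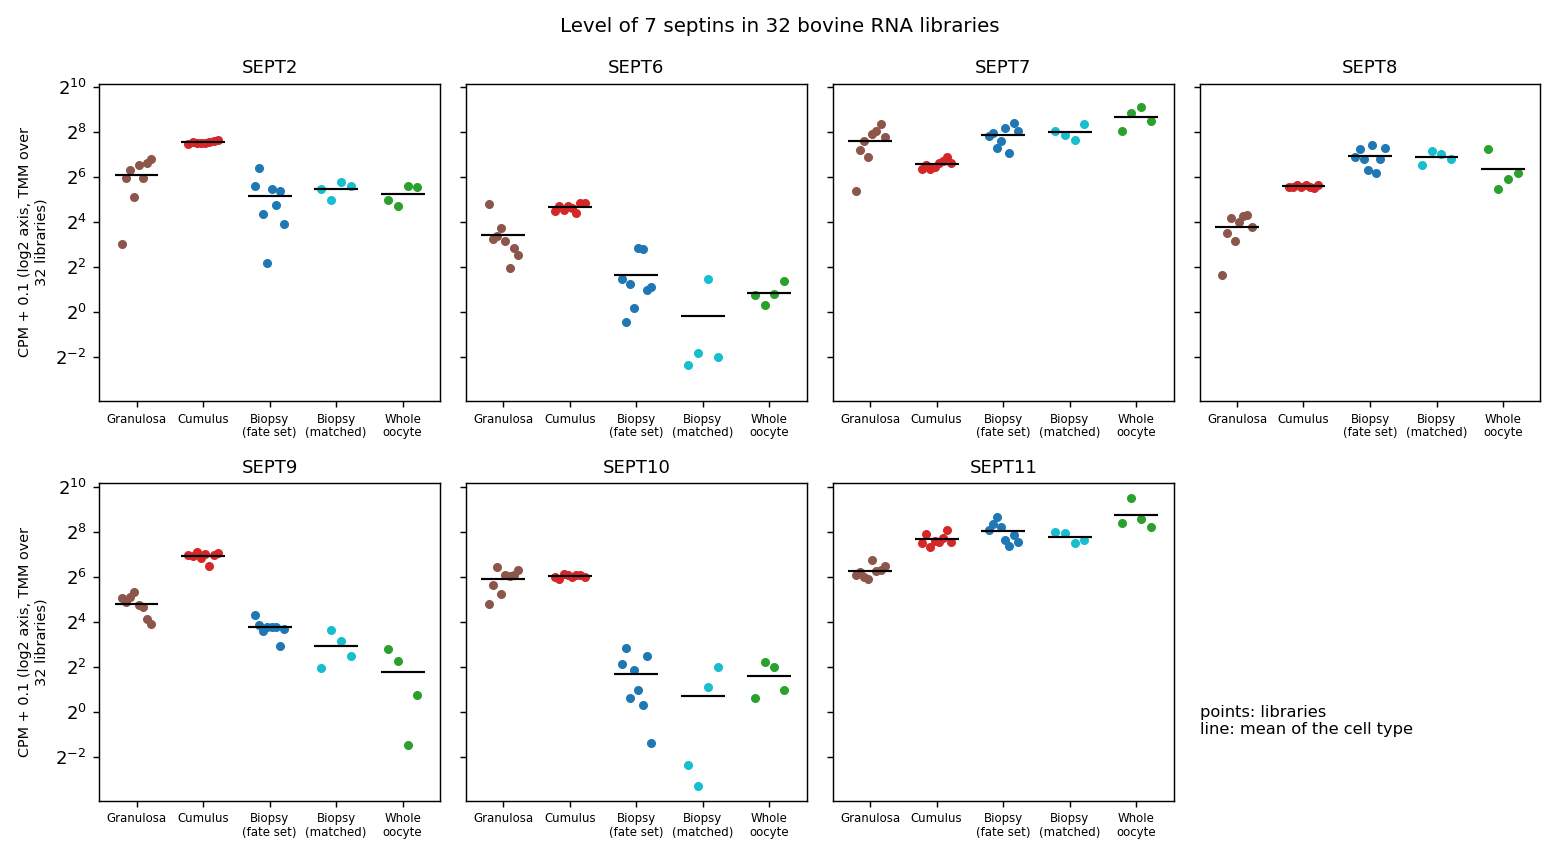
Level of each septin by cell type, as CPM + 0.1 on a log2 axis with TMM over 32 libraries; points are libraries (8 granulosa, 8 cumulus, 8 fate-scored biopsies, 4 matched biopsies, 4 whole oocytes) and lines are means. SEPT10 and SEPT9 sit lower in biopsies and oocytes than in cumulus cells, SEPT7 has its lowest mean in cumulus cells, and the 8 cumulus libraries of each septin lie close together.

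SEPT2 was highest in cumulus cells, where the 8 libraries ran from 178 to 198 CPM (median 187). Granulosa libraries ran from 7.93 to 113 CPM (median 71.2), with B20 at the lowest value and D27 next at 34.2. Fate-scored biopsies ran from 4.38 to 84.6 CPM (median 33.8). The cumulus range lay apart from all the others, whereas granulosa cells, both sets of biopsies and whole oocytes overlapped. Whole oocytes stood at 31.2, 26.4, 49.2 and 46.6 CPM in numbers 2, 3, 6 and 16, and matched biopsies at 44.7, 31.2, 55.0 and 48.4.

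SEPT7, the subunit without a paralog in its subgroup, had its lowest mean in cumulus cells, at 80.9 to 118 CPM (median 95.3). Granulosa libraries spread from 41.6 in B20 to 331 in D10 (median 207), and fate-scored biopsies from 136 to 342 (median 239). Matched biopsies stood at 264, 232, 202 and 329 CPM and whole oocytes at 265, 463, 548 and 359 in numbers 2, 3, 6 and 16. Ranges of neighbours in the order of means (whole oocyte, matched biopsy, fate-scored biopsy, granulosa, cumulus) overlapped at every step, while cumulus libraries lay below every biopsy and oocyte.

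SEPT9, which joins the longer kind of septin rod and stabilises actin and microtubule bundles, was highest in cumulus cells at 90.2 to 138 CPM (median 125). Granulosa libraries followed without overlap at 14.6 to 40.2 CPM (median 28.1). Fate-scored biopsies ran from 7.43 to 19.4 CPM (median 13.5), matched biopsies stood at 3.74, 12.2, 8.85 and 5.38, and whole oocytes at 6.86, 4.65, 0.260 and 1.59. Oocyte 6 held 3 SEPT9 counts, at the floor of 3 counts, which is 0.156 CPM of its library total.

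Within the SEPT6 subgroup, SEPT6 was highest in cumulus cells at 20.99 to 28.4 CPM (median 25.4). Granulosa libraries ran from 3.72 to 27.6 CPM (median 8.99), the highest being B20, and fate-scored biopsies from 0.632 to 7.02 CPM (median 2.14). Matched biopsies 2, 3 and 16 held 1, 3 and 2 counts and biopsy 6 held 39, while whole oocytes held 14 to 31. SEPT6 was thus near the floor in 3 of 4 matched biopsies and above it in all 4 oocytes.

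SEPT8, which can take the same position as SEPT6 in the rod, showed another order. Fate-scored biopsies ran from 71.4 to 172 CPM (median 116), and matched biopsies stood at 93.1, 142, 132 and 112. Whole oocytes stood at 152 in number 2 and at 44.5, 60.2 and 71.9 in numbers 3, 6 and 16, so that number 3 lay below every cumulus library (46.1 to 50.4 CPM). As CPM of library totals, oocytes 3 and 6 stood at 23.3 and 36.1, both below every cumulus library (48.7 to 54.3). On the joint scale granulosa libraries were lowest, at 2.98 in B20 to 19.99 in D10 (median 14.8), apart from all other cell types. By library totals they overlapped with whole oocytes, as granulosa library D24 stood at 26.7 and oocyte 3 at 23.3.

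SEPT10 stood at 59.6 to 68.8 CPM in cumulus cells and at 27.2 to 85.6 CPM in granulosa cells, with overlapping ranges. Fate-scored biopsies ran from 0.285 to 7.06 CPM (median 2.66), and whole oocytes stood at 1.44, 4.49, 3.81 and 1.82. Matched biopsy 3 held 0 counts and biopsy 2 held 1. The floor of 3 counts in biopsy 3 is 0.146 CPM of its library total and 0.184 CPM on the joint scale.

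SEPT11, the other widely expressed member of the subgroup, was highest in whole oocytes at 340, 733, 376 and 296 CPM. Matched biopsies stood at 258, 251, 181 and 197 CPM, fate-scored biopsies ran from 166 to 410 (median 253) and cumulus cells from 160 to 273 (median 192), all overlapping. As CPM of library totals, whole oocytes (208 to 384) overlapped with cumulus cells (172 to 289), which they did not on the joint scale. On the joint scale granulosa libraries were lower and apart, at 59.5 to 107 CPM (median 75.9). By library totals granulosa library B20 (147.5) lay just above matched biopsy 6 (146.8).

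Shares of the septin counts give the make-up of each library, and a share is to be read for the same gene between cell types. Of the summed counts of the 7 genes, not corrected for gene length, SEPT7, SEPT8 and SEPT11 took 34.6% ± 7.5, 18.1% ± 4.0 and 39.2% ± 10.4 in fate-scored biopsies (SD, n = 8). In cumulus cells the same genes took 12.7% ± 1.1, 6.46% ± 0.52 and 27.2% ± 3.1, while SEPT2 took 25.2% ± 1.2, SEPT9 16.4% ± 2.2 and SEPT10 8.69% ± 0.71. In granulosa cells SEPT7 took 40.7% ± 10.1, with a mean above that of fate-scored biopsies by less than the SD, and SEPT11 took 18.4% ± 6.2, SEPT2 14.1% ± 5.2 and SEPT10 13.2% ± 2.1. The remaining shares in granulosa cells were 7.30% ± 4.72 for SEPT9, 3.31% ± 4.19 for SEPT6 and 2.90% ± 0.72 for SEPT8. In whole oocytes SEPT9, SEPT10, SEPT6 and SEPT2 took 0.363% ± 0.359, 0.283% ± 0.091, 0.190% ± 0.095 and 4.17% ± 1.64 (SD, n = 4).

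**Figure D2:**
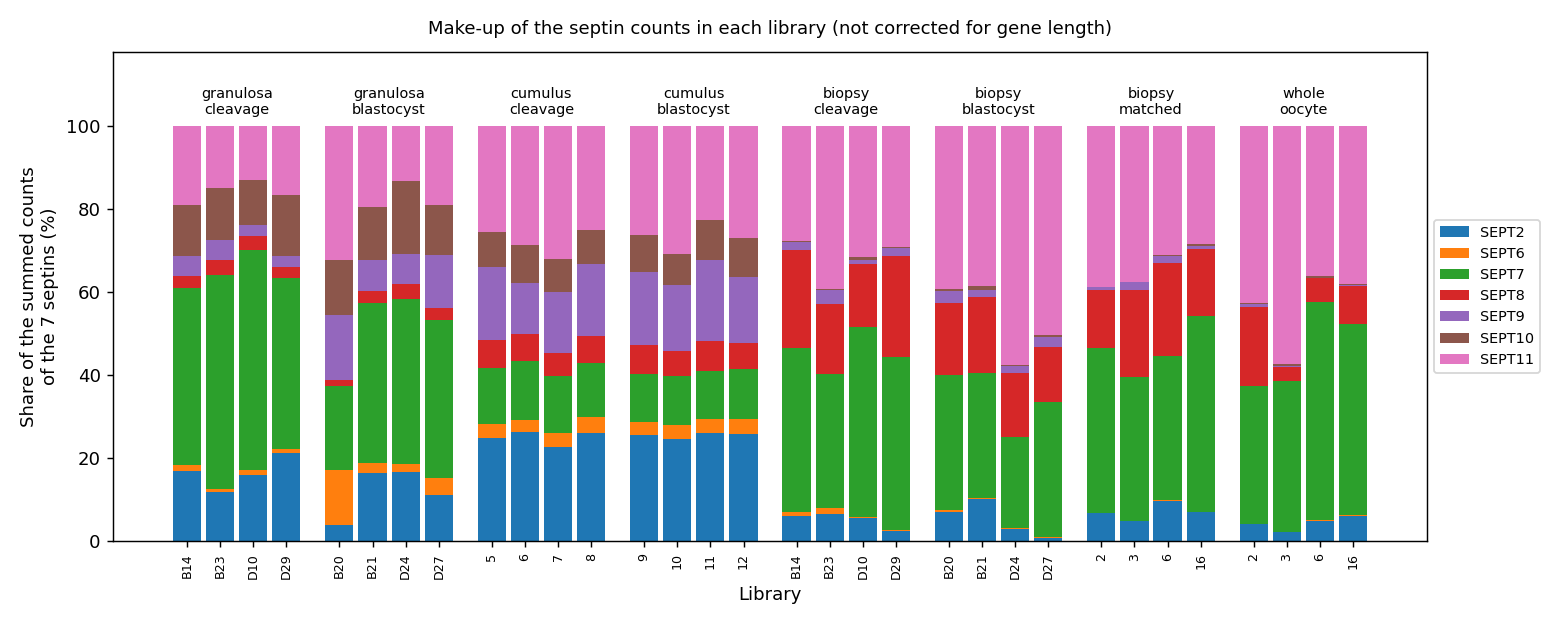
Share of each septin in the summed counts of the 7 genes, in percent, for each of 32 libraries (bars, grouped by cell type and fate; not corrected for gene length). SEPT10 takes 7.71% to 17.7% in somatic libraries and at most 0.847% in biopsies and oocytes, and SEPT6 takes 13.3% in granulosa library B20.

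Shares within the SEPT6 subgroup are of the summed counts of SEPT6, SEPT8, SEPT10 and SEPT11 and leave out SEPT14, which held 144 counts in granulosa library B20, where SEPT8 held 65. They too are not corrected for gene length. SEPT11 took 48.1% ± 5.7 in granulosa cells, 59.4% ± 4.1 in cumulus cells, 66.5% ± 9.4 in fate-scored biopsies and 81.7% ± 10.4 in whole oocytes (SD, n = 8, 8, 8 and 4). SEPT10 took 36.3% ± 7.8 of the subgroup in granulosa cells and 19.1% ± 2.1 in cumulus cells, against 0.780% ± 0.542 in fate-scored biopsies and 0.555% ± 0.238 in whole oocytes. SEPT8 took 8.27% ± 2.95 in granulosa cells, 14.2% ± 1.7 in cumulus cells, 31.9% ± 9.3 in fate-scored biopsies and 17.3% ± 10.5 in whole oocytes, where number 2 reached 30.6%.

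To ask which septins differed between the oocyte and the cells around it, contrasts were taken from 1 edgeR quasi-likelihood fit of all 32 libraries over 29999 rows, with an adjusted p under 0.05 as the call. The contrasts share groups: granulosa cells enter 2 of them and cumulus cells 2. Each row has 1 estimate of spread for all groups, though replicates differed least in cumulus cells. Their lowest chi-square over degrees of freedom was 4.70 and 6.08, against 44.55 or more elsewhere. Fitted on their own libraries, cumulus against granulosa cells called 72.7% of 21929 rows and whole oocytes against cumulus cells 89.6% of 19202. In biopsies against granulosa cells of the same follicles, 62.2% of all rows were called (33.6% higher and 28.7% lower in biopsies), and 6 of 7 septins were called, 2 higher and 4 lower. The median log2 fold change was -0.89 over the members and 0.06 over all rows.

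SEPT8 rose by 3.19 on the log2 scale (SE 0.28, 9.16-fold, edgeR adjusted p = 1.31e-11) and SEPT11 by 1.73 (SE 0.18, edgeR adjusted p = 8.02e-10). SEPT10 fell by 4.32 (SE 0.56, 19.9-fold, edgeR adjusted p = 4.44e-08), and was -5.00 with the cleavage groups alone and -3.63 with the blastocyst groups alone. SEPT6 fell by 1.84 (SE 0.48, edgeR adjusted p = 0.00121) and SEPT9 fell by 1.02 (SE 0.32, edgeR adjusted p = 0.00691), and both calls were lost with the cleavage groups alone, at log2 -0.49 and -0.83 (edgeR adjusted p = 0.537 and 0.121). With the blastocyst groups alone SEPT6 was -3.19 (edgeR adjusted p = 3.87e-04). SEPT2 fell by 0.89 (SE 0.37, edgeR adjusted p = 0.0377), a call that was lost with these libraries fitted alone and with the oocyte label as a block (edgeR adjusted p = 0.122 and 0.0905). With the blastocyst groups alone SEPT2 was -0.23 (edgeR adjusted p = 0.723), and with the cleavage groups alone it was -1.54 (edgeR adjusted p = 0.0145). The SEPT2 call was also lost when granulosa library B21, D24, B14, D10 or D29 or biopsy D24, D27, B23 or D29 was left out (edgeR adjusted p = 0.0518 to 0.115). SEPT7 differed by 0.34 (SE 0.22, edgeR adjusted p = 0.194) and did not pass, with a sign that turned under library totals, with the cleavage groups alone and without both B20 and D27.

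Of the whole-oocyte against cumulus contrast, 69.7% of all rows were called (41.9% higher and 27.8% lower in oocytes), and all 7 septins passed, 3 higher and 4 lower. The median log2 fold change was -2.29 over the members and 0.68 over all rows, and the latter was 0.51 on DESeq2 size factors and 0 on library totals. SEPT7 rose by 2.11 (SE 0.26, 4.31-fold, edgeR adjusted p = 2.25e-08). SEPT9 fell by 5.18 (SE 0.52, 36.3-fold, edgeR adjusted p = 2.33e-10), SEPT10 fell by 4.48 (SE 0.77), SEPT6 fell by 3.87 (SE 0.70) and SEPT2 fell by 2.29 (SE 0.51), with edgeR adjusted p of 5.41e-06, 1.40e-05 and 1.87e-04 for the last 3. The sizes moved with the setting while these 5 calls held in every alternative run. SEPT9 was -5.81 without oocyte 2, -5.83 with library totals and -4.01 with matched biopsies in place of oocytes, and SEPT7 was 1.34 with library totals and 1.44 with matched biopsies. With library totals SEPT10, SEPT6 and SEPT2 were -5.29, -4.55 and -3.0002, and with matched biopsies SEPT10 and SEPT6 were -5.41 and -4.99.

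The gains of SEPT11 and SEPT8 were smaller and depended on the setting. SEPT11 rose by 1.10 (SE 0.21, edgeR adjusted p = 3.40e-05), but with library totals the difference was 0.31 (edgeR adjusted p = 0.147), and with matched biopsies in place of oocytes it was 0.12 (edgeR adjusted p = 0.642). SEPT8 rose by 0.77 (SE 0.31, edgeR adjusted p = 0.0273), and was 0.59 with DESeq2 size factors (edgeR adjusted p = 0.0520), 0.16 with library totals (edgeR adjusted p = 0.670) and 0.29 without oocyte 2 (edgeR adjusted p = 0.442). Relative to the median of all rows, SEPT8 was 0.77 against 0.68, close to the shift of rows at large.

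The somatic cell types differed from each other as well. In cumulus against granulosa cells 51.7% of all rows were called (18.8% higher and 32.9% lower in cumulus cells), and 6 septins passed, 5 higher and 1 lower, with a median log2 fold change of 1.41 over the members and -0.20 over all rows. SEPT9 rose by 2.19 (SE 0.33), SEPT8 by 1.85 (SE 0.27), SEPT2 by 1.53 (SE 0.38) and SEPT11 by 1.41 (SE 0.18), with edgeR adjusted p of 2.06e-06, 9.44e-07, 0.00104 and 1.22e-07. SEPT6 rose by 1.36 (SE 0.47, edgeR adjusted p = 0.0152), a call lost on DESeq2 size factors, on library totals, without the filter, with TMM factors over all rows before the filter, with the blastocyst groups alone and without granulosa library B23. SEPT7 fell by 0.94 (SE 0.23, edgeR adjusted p = 8.38e-04), and was -0.56 with the blastocyst groups alone (edgeR adjusted p = 0.152). SEPT10 differed by 0.13 (SE 0.48, edgeR adjusted p = 0.968), and its sign turned in 9 alternatives. With its own libraries alone it was -0.10 with a smaller SE of 0.16 (edgeR adjusted p = 0.578). The SEPT2 call was lost with the cleavage groups alone (log2 1.06, edgeR adjusted p = 0.147).

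**Figure D3:**
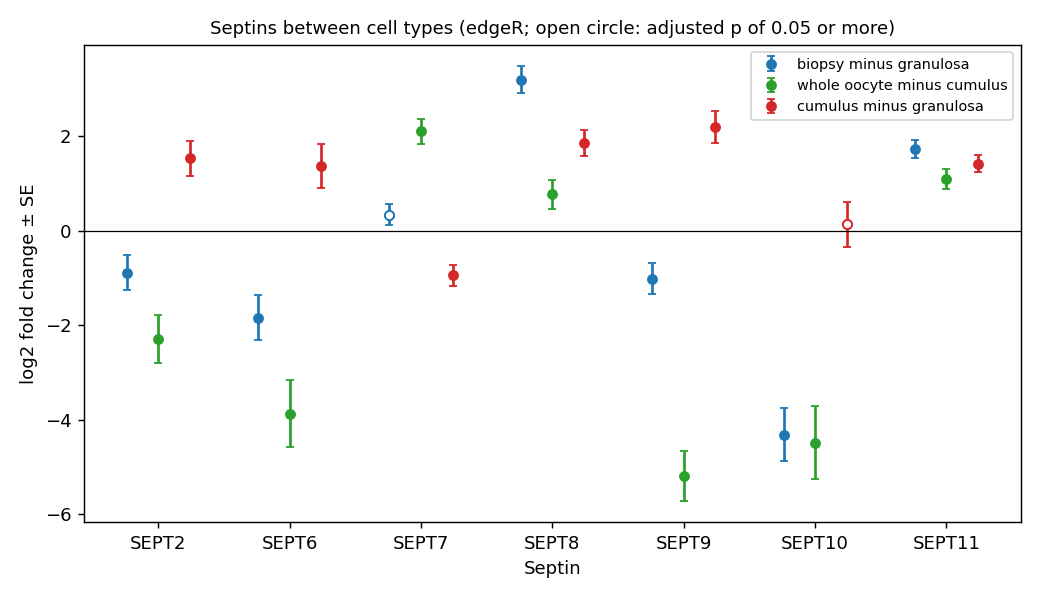
Log2 fold change of each septin with its SE in 3 contrasts of the fit of 32 libraries (biopsies minus granulosa cells, whole oocytes minus cumulus cells, cumulus minus granulosa cells); filled circles have an edgeR adjusted p under 0.05. SEPT10 is below 0 in both contrasts with the oocyte side (-4.32 and -4.48), SEPT8 and SEPT11 are above 0 in all 3, and SEPT7 in biopsies minus granulosa cells (0.34, turning under library totals) and SEPT10 in cumulus minus granulosa cells (0.13, turning under 9 alternatives) are open.

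The remaining 6 septins with a row, mostly known from narrower sets of tissues, were also tested between biopsies and granulosa cells, where 62.2% of all rows were called: 3 were called higher and 3 lower. SEPT14 passed the filter through the blastocyst granulosa libraries, where it held 15 to 144 counts, against 0 to 14 in cleavage granulosa cells and 0 to 12 in biopsies, so nothing is read from that count. SEPT1, known from lymphocytes and studied in the mouse oocyte spindle, stood at 23.3 to 104 CPM in biopsies and oocytes and at 0.0410 to 4.02 CPM in somatic cells, and rose by 6.26 on the log2 scale in biopsies (SE 0.45, edgeR adjusted p = 1.02e-13). SEPT12, a component of the sperm annulus, stood at 6.71 to 44.8 CPM on the oocyte side and at 0.650 to 4.05 CPM on the somatic side. SEPT5, known from neurons and platelets, held 0 to 3 counts per whole oocyte and 25.1 ± 1.0 and 30.3 ± 4.6 CPM in cumulus cells of the cleavage and blastocyst groups (SD, n = 4). SEPT14 had 0 to 2 counts in every cumulus library.

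Fate was compared within each cell type, and here CPM are scaled by TMM within the libraries of that comparison. In granulosa cells 21.6% of all rows were called, nearly all of them higher in the blastocyst group (21.3% higher and 0.349% lower). Of the septins 0 of 7 were called (edgeR), with 2 septins and 36.8% of rows at an unadjusted p under 0.05. The median log2 fold change was -0.32 over the members and 0.10 over all rows. DESeq2 called 2 of them, SEPT6 and SEPT9, and 32.4% of rows.

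SEPT6 stood at 39.7, 13.7, 15.3 and 18.8 CPM in B20, B21, D24 and D27 of the blastocyst group and at 10.9, 5.46, 8.99 and 7.10 CPM in B14, B23, D10 and D29 of the cleavage group. The groups did not overlap, and B20 was highest. The log2 difference was 1.43 (SE 0.51, edgeR adjusted p = 0.0664). The call depended on how library size was set: it was 1.72 (edgeR adjusted p = 0.0452) with TMM on the totals of all rows, 1.16 (edgeR adjusted p = 0.117) with TMM factors taken over all rows before the filter, 1.93 (edgeR adjusted p = 0.0390) on DESeq2 size factors and 2.11 (edgeR adjusted p = 0.0215) on library totals. The fit with totals of all rows was run earlier than the one reported, and the choice between them was made with both results known. The median of all rows moved with the scaling, from 0.10 to 0.48 on DESeq2 size factors and 0.69 on library totals. Without both B20 and D27 the difference was 0.87 (edgeR adjusted p = 0.346).

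SEPT9 stood at 47.1, 43.1, 50.3 and 57.3 CPM in the blastocyst group and at 33.8, 37.1, 22.4 and 18.4 CPM in the cleavage group, again without overlap. The log2 difference was 0.82 (SE 0.37, edgeR adjusted p = 0.129), and it was called on DESeq2 size factors (1.22, edgeR adjusted p = 0.0373) and with library totals (1.43, edgeR adjusted p = 0.0173). SEPT6 and SEPT9 were thus 2 of 7 members without overlap between groups, where 38.4% of all rows tested had none (28.7% higher and 9.64% lower in the blastocyst group).

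The means of SEPT2, SEPT7, SEPT8, SEPT10 and SEPT11 were lower in the blastocyst group, with overlapping groups. SEPT7 stood at 59.9, 219, 285 and 172 CPM in B20, B21, D24 and D27 against 302, 394, 426 and 278 in B14, B23, D10 and D29 (log2 -0.93, SE 0.52, edgeR adjusted p = 0.203). SEPT2 stood at 11.4, 92.7, 118 and 48.9 CPM against 118, 90.1, 128 and 142 (log2 -0.82, SE 0.59, edgeR adjusted p = 0.299). Library B20 was lowest for SEPT2, SEPT7, SEPT8 and SEPT10 and highest for SEPT6. It was also the granulosa library with the most H1FOO counts, though not the most TCL1B counts, and the most rows detected. B20 and D27 had the lowest totals of the granulosa libraries (9875705 and 10821126 counts). Their TMM factors over all 32 libraries, 2.228 and 1.929, were the highest. By library totals SEPT7 stood at 231 CPM in D27 and 228 in B21, against 172 and 219 on the scale used here. On the joint scale SEPT6 stood at 27.6 CPM in granulosa library B20, and the highest biopsy or oocyte library stood at 7.02 CPM. The part of these traits of B20 and D27 in the septin values was not tested.

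In cumulus cells 0.0% of all rows and 0 of 7 septins were called by edgeR, with 14.6% of rows and 1 septin at an unadjusted p under 0.05, while DESeq2 called 0.605% of rows and 1 septin, SEPT7. SEPT7 stood at 86.6, 99.4, 88.7 and 94.9 CPM in the 4 blastocyst libraries and at 107, 114, 125 and 108 CPM in the 4 cleavage libraries, without overlap, as in 8.92% of all rows. The log2 difference was -0.30 (SE 0.07, edgeR adjusted p = 0.146), and it was called without the filter on low counts (edgeR adjusted p = 0.0417). The other 6 members differed by -0.15 to 0.06. SEPT8 stood at 50.8 to 53.9 CPM in the blastocyst group and 49.0 to 54.1 CPM in the cleavage group.

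In ooplasm biopsies 0.0% of all rows and 0 of 7 septins were called by edgeR, with 4.8% of rows and 1 septin at an unadjusted p under 0.05, and DESeq2 called 0.438% of rows and 0 septins. SEPT11 stood at 260, 295, 385 and 272 CPM in B20, B21, D24 and D27 and at 194, 170, 217 and 172 CPM in B14, B23, D10 and D29. All 4 blastocyst biopsies lay above all 4 cleavage biopsies, as in 2.09% of all rows (3.51% in either direction), and the log2 difference was 0.69 (SE 0.22, edgeR adjusted p = 0.937). SEPT6 stood at 2.58, 0.578, 2.09 and 0.919 CPM in the blastocyst group and at 6.76, 6.99, 1.71 and 1.89 CPM in the cleavage group, where B14 and B23 were high and D10 and D29 lay among the blastocyst values (log2 -1.49, SE 0.90, edgeR adjusted p = 1.0).

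**Figure D4:**
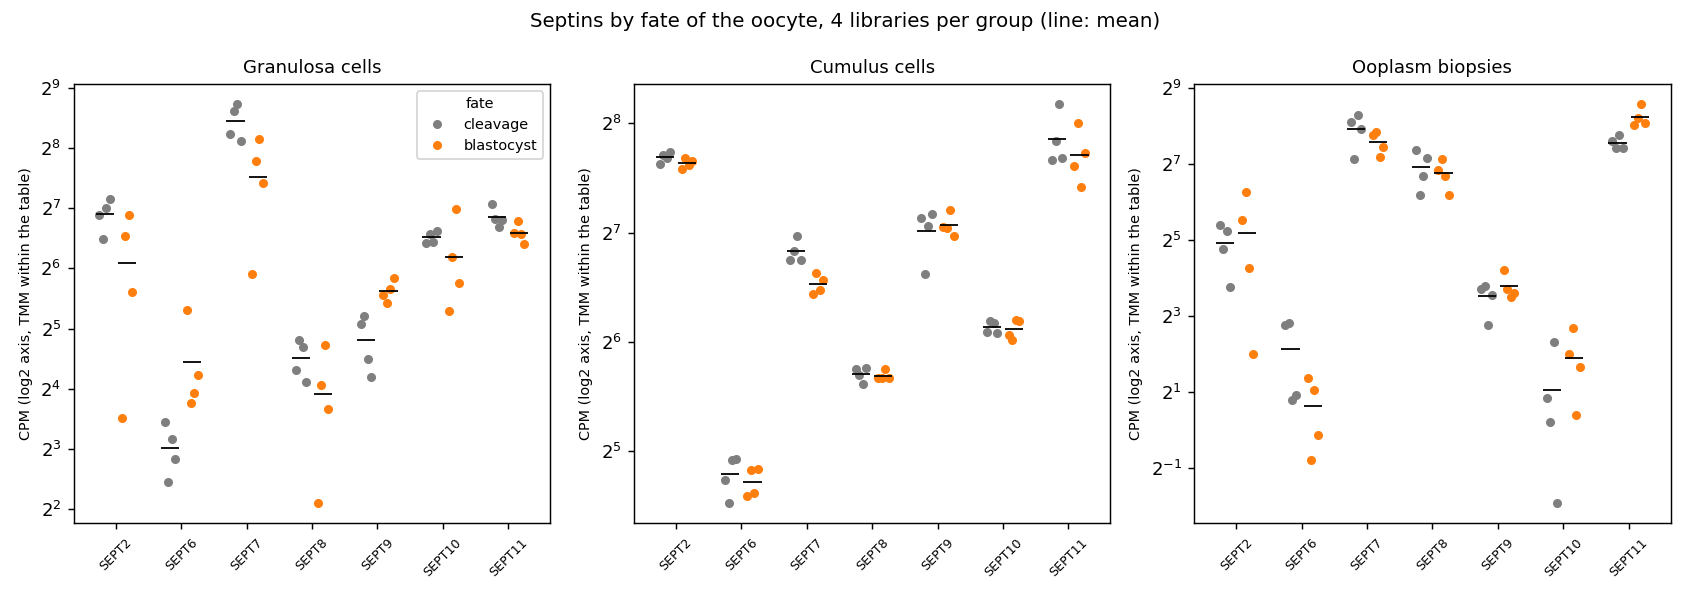
CPM (log2 axis, TMM within the table) of each septin in granulosa cells, cumulus cells and biopsies, with 4 blastocyst (orange) and 4 cleavage (grey) libraries per cell type and lines at the means. SEPT6 and SEPT9 in granulosa cells, SEPT7 in cumulus cells and SEPT11 in biopsies are the members without overlap between fates, and none of the 4 passed the edgeR threshold.

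Whether the fate difference itself differed between granulosa cells and biopsies was tested as an interaction term, which called 6.9% of all rows (6.35% with a positive and 0.549% with a negative term) and 0 of 7 septins by edgeR, with 26.1% of rows and 2 septins at an unadjusted p under 0.05. The term was 2.70 for SEPT6 (SE 0.95, edgeR adjusted p = 0.0838) and -1.14 for SEPT11 (SE 0.39, edgeR adjusted p = 0.0811). SEPT6 passed with library totals (3.61, edgeR adjusted p = 0.0266), without cleavage biopsy D10 (3.37, edgeR adjusted p = 0.0329) and without cleavage biopsy D29 (3.35, edgeR adjusted p = 0.0432). Over all alternatives its term ran from 2.23 to 3.61 and its edgeR adjusted p reached 0.393. The SEPT11 term ran from -1.39 to -0.40, with an edgeR adjusted p of 0.0552 to 0.567.

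Matched biopsies were set against whole oocytes to ask how far a biopsy reports on its oocyte. Of all rows 0.0% and of the septins 0 of 7 were called by edgeR, with 5.54% of rows and 1 septin at an unadjusted p under 0.05, and DESeq2 called 0.51% of rows. SEPT11 stood at 192, 190, 135 and 148 CPM in biopsies 2, 3, 6 and 16 and at 234, 509, 253 and 204 CPM in the oocytes. It was lower in the biopsy in 4 of 4 pairs, and the groups did not overlap, as in 4.22% of all rows (log2 -0.85, SE 0.32, edgeR adjusted p = 0.758). SEPT2 stood at 33.3, 23.6, 41.2 and 36.2 CPM in the biopsies and at 21.5, 18.3, 33.2 and 32.04 CPM in the oocytes, higher in the biopsy in 4 of 4 pairs with overlapping groups (log2 0.35, SE 0.33, edgeR adjusted p = 0.977). The SE and adjusted p of SEPT11 and SEPT2 are from a fit without the pairs. Over all fits, 1 of them with the number as a block, the lowest adjusted p (edgeR or DESeq2) was 0.352 for SEPT11 and 0.771 for SEPT2. The share of all rows with 4 of 4 pairs in 1 direction was not computed. SEPT8 was lower in the oocyte in pairs 3, 6 and 16 (107, 98.5 and 83.7 CPM against 30.9, 40.6 and 49.5) and higher in pair 2 (69.4 against 104).

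**Figure D5:**
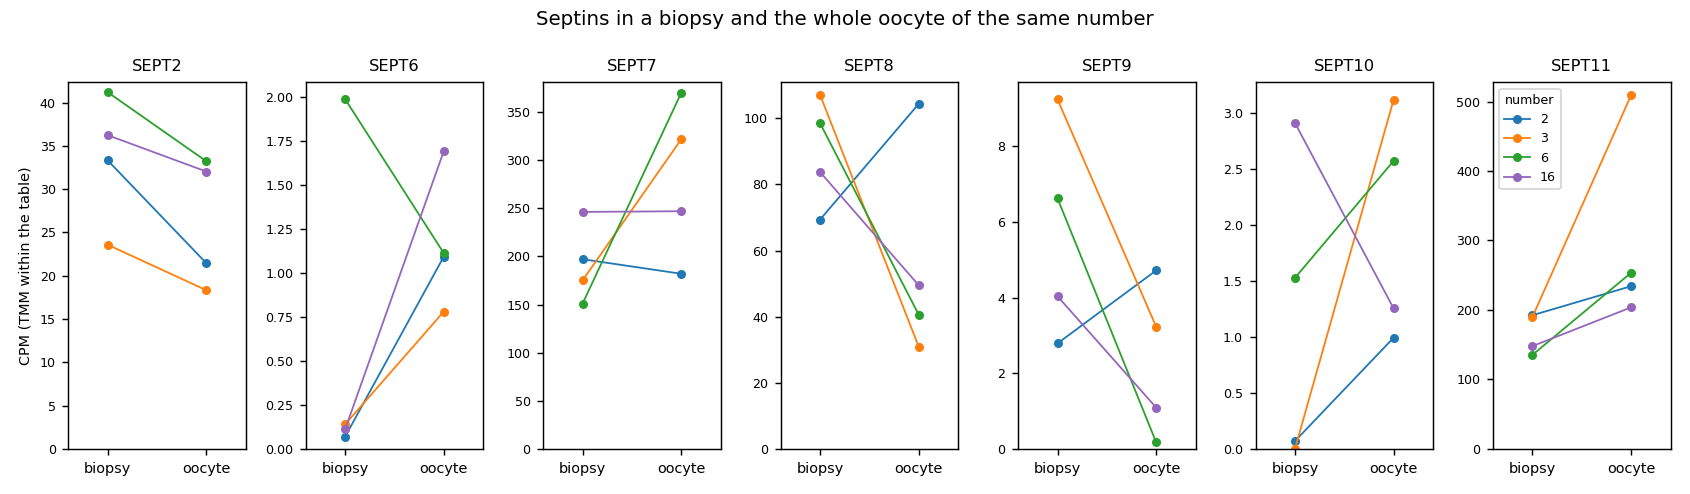
CPM (linear axes, TMM within the table) of each septin in 4 biopsies and the whole oocytes of the same number, joined by lines. SEPT11 is higher in the oocyte in 4 of 4 pairs and SEPT2 higher in the biopsy in 4 of 4, and 0 of 7 septins passed the edgeR threshold.

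For each septin, the rows with a symbol whose log2 CPM ran most like it over the 32 libraries were taken from 1267 rows that passed the filter. The libraries form 5 cell types that share tables and depth, so these coefficients describe differences between cell types and carry no test. The highest Pearson coefficients were 0.96 for SEPT8 with PCBP1, an RNA-binding protein, and 0.95 for SEPT7 with U2SURP, a splicing factor. PCBP1 stood at 846 ± 163 CPM in fate-scored biopsies, 256 ± 12 in cumulus cells and 57.7 ± 31.8 in granulosa cells (SD, n = 8), the same order as SEPT8. SEPT6 ran with KIAA0556 (0.91), SEPT9 with ZNF282 (0.90), SEPT10 with APOBEC3Z2 (0.91) and SEPT11 with a LOC row that RefSeq names TNFRSF17 (0.89). The second row was PAPD7 for SEPT8 (0.94), MARCH7 for SEPT7 (0.93), MTA1 for SEPT9 (0.90), XIST, the RNA of X inactivation, for SEPT10 (0.90), A2M for SEPT6 (0.88), FOXC1 for SEPT11 (0.86) and CYREN for SEPT2 (0.85). XIST stood at 734 ± 423 CPM in granulosa cells, 303 ± 87 in cumulus cells and 1.198 ± 1.295 in fate-scored biopsies (SD, n = 8), the side of the follicle on which SEPT10 was high.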

How the data were processed

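RNA was measured in 32 libraries of granulosa cells, cumulus cells, biopsies and whole oocytes. Polar body methylation was not used, and 24 columns of its table match no sample's name. SMART-Seq HT and Nextera XT kits were used for RNA, the latter described as stranded, per the labels' protocols. Reads went through Trim Galore and cutadapt, STAR and featureCounts, per the submitters' processing notes. Not given in the sources used here are their versions, the genome build, the strand setting and the treatment of reads shared between paralogs or overlapping rows, so reads that a septin shares with another row could not be separated. The tables the authors deposited hold raw counts, as whole numbers, and these entered the tests unchanged.

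Members, lists and tests were chosen with earlier results of these data known. Named genes were the 7 septins, the other 6 septins with a row, 33 septin partners and cytokinesis genes, of which 0 had a row under their symbol, and for each member the 2 symbol rows most correlated with it over 32 libraries (log2 CPM, prior count 2). Of these rows, 1 is not reported here. Ensembl and NONCODE rows carry no symbol here, so most markers could not be looked up. A RefSeq gene table (ARS-UCD2.0) served for names of LOC rows only, and no sequences or coordinates were used.

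After filterByExpr, counts were scaled by TMM on the totals of the rows kept and tested by the robust quasi-likelihood F test of edgeR 4.0.16 (R 4.3.3). A Benjamini-Hochberg adjusted p under 0.05 over all rows tested was called. Fate and matched comparisons were fitted on their own libraries, the difference of fate effects as an interaction, and cell-type contrasts in a fit of all 32 libraries. The scripts were tested on simulated data. TMM on the totals of all rows had been run earlier, and the form reported was chosen with both results known; another form, with factors over all rows before the filter, was tried at the same time. DESeq2 1.42.0 (Wald test, every row with a count), DESeq2 size factors, library totals, no filter, each library left out, the label letter as a covariate, group subsets and replicate blocks were the other alternatives. Errors are SD over libraries or SE of the fit, and floors are 3 counts and cover counting error only.

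Granulosa cells and biopsies with the same oocyte label come from the same follicle, per the series text. Deviations from group means of the same-label pairs correlated at -0.0232 to 0.140 across rows (8 pairs), and those of other pairs at -0.154 to 0.141 (56 pairs), so this check does not separate them. Among matched libraries the values were 0.173 to 0.261 for equal numbers (4 pairs) and for the others -0.270 to 0.173 (12 pairs). Biopsy 6 with oocyte 16 (0.1732) lay above biopsy 16 with oocyte 16 (0.1725), so the check does not separate numbers 6 and 16. The numbers were taken as pairs from the labels. Replicates of every group differed by more than counting noise, the lowest chi-square over degrees of freedom being 4.70. Figures were drawn with matplotlib 3.10.9 (Python 3.11.15, pandas 2.3.3).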

Additional observations from a re-analysis of the deposited data

Results flagged for a closer look

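The highest or lowest library was set against the others of its group for 13 septins in 8 groups of 4 libraries, 104 groups in all. In 8 of them 1 library stood far from the other 3, where chance alone flags about 1 in 20 groups. Values are CPM scaled by TMM within the table. Among the members, SEPT6 stood at 1.99 in matched biopsy 6, against 0.0697 to 0.139 in the other 3 biopsies. SEPT8 stood at 53.9 in cumulus library 11 of the blastocyst group, against 50.8 to 50.9 in the others, a small difference in a tight group. SEPT11 stood at 509 in whole oocyte 3, against 204 to 253 in the others.

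Among the other septins, SEPT12 stood at 29.6 in matched biopsy 2, against 11.7 to 13.8. SEPT3 stood at 1.09 in cleavage granulosa library B23, where the other 3 libraries held 0 counts. SEPT14 stood at 0.564 in cleavage biopsy B14, 0.105 in cleavage cumulus library 7 and 0.349 in matched biopsy 2, groups in which the other libraries held 0 to 1 count. The SEPT14 value of cumulus library 7 is 1 count, under the floor of 3 counts. For it and for SEPT3 in B23 the other 3 libraries are at 0, so the gap is the whole range by construction.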

How the results depend on the processing

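Between 0 and 7 of the septins were called in each comparison, and these counts were within 1.5 times the reported ones except as follows. For fate in granulosa cells, where 0 were called, DESeq2 size factors, library totals and the DESeq2 Wald test called 2 (SEPT6 and SEPT9) and 25.6%, 29.8% and 32.4% of all rows, and TMM on the totals of all rows called 1 (SEPT6) and 25.6%, while TMM factors over all rows before the filter called 0. For fate in cumulus cells the fit without the filter and the DESeq2 Wald test called 1 (SEPT7), with 0.696% and 0.605% of rows. For the interaction library totals called 1 (SEPT6) and 13.4% of rows. Leaving out single libraries gave 0 to 1, the 1 being SEPT6 without cleavage biopsy D10 or D29 (11.4% and 8.65% of rows). Rows called over the whole table moved too. In granulosa cells they were 4964 in the reported fit, 3162 without B20, 2482 without D27 and 0 without both. At an edgeR unadjusted p under 0.05 there were 4602 rows without both. Leaving out cleavage library B23 raised the number called to 8131. In the interaction they were 1948 in the reported fit, 443 without B20, 566 without D27 and 45 without both. Without cleavage granulosa libraries D29, B14 and B23 in turn they were 636, 697 and 4955.

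Single septins kept their sign and call in 1020 of 1092 alternatives, lost a call in 29, gained one in 12 and changed sign in 31. No septin that was called changed sign. The cause of each change was not tested. With library totals the log2 difference turned to 0.16 for SEPT10 and 0.31 for SEPT11 in granulosa fate, 4.68e-04 for SEPT8 and 0.0012 for SEPT10 in cumulus fate, 0.035 for SEPT8 in the interaction, -0.19 for SEPT7 in biopsies against granulosa cells and -0.19 for SEPT10 in cumulus against granulosa cells. SEPT11 in granulosa fate turned to 0.10 with DESeq2 size factors and 0.092 with the DESeq2 Wald test. Without both B20 and D27 it was 0.17 for SEPT10 in granulosa fate, 0.087 for SEPT8 in the interaction, -0.0033 for SEPT7 in biopsies against granulosa cells and -0.23 for SEPT10 in cumulus against granulosa cells. SEPT7 in biopsies against granulosa cells was -0.039 with the cleavage groups alone, and SEPT2 in biopsy fate -0.16 with the label letter as a covariate. SEPT10 in cumulus against granulosa cells was also -0.096 with DESeq2 size factors, -0.017 without the filter and -0.017 with TMM factors over all rows before it, -0.10 with the cleavage groups alone, -0.10 with its own libraries alone and -0.19 with the DESeq2 Wald test. Leaving out single libraries gave -0.040 to 0.0075 for SEPT8, -0.050 to 0.12 for SEPT9 and -0.039 to 0.024 for SEPT10 in cumulus fate, -0.39 to 0.64 for SEPT2 and -0.35 to 0.015 for SEPT8 in biopsy fate, and -0.097 to 0.34 for SEPT10 in cumulus against granulosa cells.

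With the oocyte number as a block, 0 septins were called between matched biopsies and whole oocytes (1262 rows at an unadjusted p under 0.05, against 1028), and with the oocyte label as a block 0 in the interaction, as in the reported fits. With biopsies and granulosa cells fitted alone, 5 septins were called with the block and 5 without it, against 6 in the fit of all 32 libraries. Fate differs between oocytes, so the fate comparison in cumulus cells holds no pairs. The cumulus columns carry no title number, and these libraries were not paired with those of other cell types. Low counts limit SEPT6, SEPT9 and SEPT10 in the matched set. Matched biopsies 2, 3 and 16 held 3 counts or fewer of SEPT6, and matched biopsies 2 and 3 of SEPT10. Oocyte 6 held 3 counts of SEPT9. Every fate-scored biopsy held more than 3 counts of each of these genes.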
